A study of Mus musculus with 12 samples.

Results

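Glycolysis and the pentose phosphate pathway were followed through 32 genes given by name: 2 glucose transporters, 15 glycolytic enzymes, 4 lactate dehydrogenase and lactate transporter genes, 4 regulators and 7 pentose phosphate enzymes. The list names genes and uses no measured value, but it was drawn up with earlier results of these data known. They are 32 of the 55536 annotated genes in the count table, and all 32 were among the 18817 genes that passed the filter on low counts. RNA-seq was performed on CD8+ T cells sorted from mouse spleen and lymph nodes. The cells carry the OT-I transgenic T cell receptor, which recognises an ovalbumin peptide, on the C57BL/6J background, and per the study's methods the donors lack a recombination activating gene. In the Ag group (5 libraries) OT-I cells had been transferred into C57BL/6J recipients that then received the peptide with a control antibody. In the Ag+Costim group (5 libraries) recipients of the same kind of cells received the peptide with agonist antibodies to the costimulatory receptors OX40 and 41BB. Both were collected on day 4 according to the labels, and the methods give a slightly earlier time. The Naive group (2 libraries) came from OT-I mice with no transfer and no stimulation, so that Naive differs from Ag in transfer and host as well as in antigen. The methods describe libraries as individual biological replicates from mice of both sexes, and each library is named here by its group and the number in its label.

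Glycolysis splits glucose into pyruvate, which gives ATP and carbon intermediates, and lactate dehydrogenase with the monocarboxylate transporters removes pyruvate as lactate. The pentose phosphate pathway branches from glucose 6-phosphate. Its oxidative arm makes NADPH, and its non-oxidative arm interconverts sugars and yields ribose 5-phosphate for nucleotides. T cells that leave rest and divide are known to raise glucose uptake and lactate release, and several glycolytic genes are textbook targets of the transcription factors HIF-1 and Myc.

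Pyruvate kinase is the enzyme of the pathway with a well known choice between mutually exclusive exons, so the exons are printed here because the M1 share below counts transcripts by which of them is included. Both lie in Pkm on the plus strand of chromosome 9 (GRCm38), the M1 exon at chr9:59675029-59675195 and the M2 exon at chr9:59675568-59675734, and each has 167 bases. Capitals mark the 64 positions at which the aligned exons differ, and the other 103 are the same.
Pkm M1 exon: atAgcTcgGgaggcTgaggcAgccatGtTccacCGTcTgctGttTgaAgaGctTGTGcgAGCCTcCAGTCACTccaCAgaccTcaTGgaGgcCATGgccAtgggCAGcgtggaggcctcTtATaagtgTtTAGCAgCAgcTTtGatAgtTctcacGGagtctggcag
Pkm M2 exon: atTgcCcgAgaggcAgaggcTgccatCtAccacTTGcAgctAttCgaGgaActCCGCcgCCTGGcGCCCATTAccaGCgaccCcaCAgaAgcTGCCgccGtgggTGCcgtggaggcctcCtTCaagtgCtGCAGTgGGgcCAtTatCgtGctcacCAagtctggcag

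Promoter sequence is printed for 3 genes of the lactate step that moved in different directions between Ag+Costim and Ag: Slc16a1 and Ldha, which were higher in Ag+Costim, and Ldhb, which was lower. Each is the 250 bases upstream of a RefSeq transcription start (GRCm38.p6), at chr3:104638414-104638663 on the plus strand for Slc16a1, chr7:46845554-46845803 on the plus strand for Ldha and chr6:142507958-142508207 on the minus strand for Ldhb. Capitals mark any match, on either strand, to ACGTG or to the related motif GCGTG, which are the cores that HIF-1 is known to bind. They also mark the E-box that Myc is known to bind, CACGTG, whose last bases are those of the first motif.
Slc16a1 promoter: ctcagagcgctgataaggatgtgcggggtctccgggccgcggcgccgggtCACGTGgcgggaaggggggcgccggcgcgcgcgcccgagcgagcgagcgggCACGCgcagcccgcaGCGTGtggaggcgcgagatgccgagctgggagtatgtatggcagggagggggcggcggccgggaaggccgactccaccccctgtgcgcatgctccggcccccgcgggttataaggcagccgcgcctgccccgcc
Ldha promoter: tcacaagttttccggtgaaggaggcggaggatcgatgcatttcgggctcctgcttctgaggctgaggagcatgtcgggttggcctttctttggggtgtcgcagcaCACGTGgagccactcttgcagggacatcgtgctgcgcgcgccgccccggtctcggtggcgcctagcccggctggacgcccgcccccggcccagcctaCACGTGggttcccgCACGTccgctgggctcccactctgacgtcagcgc
Ldhb promoter: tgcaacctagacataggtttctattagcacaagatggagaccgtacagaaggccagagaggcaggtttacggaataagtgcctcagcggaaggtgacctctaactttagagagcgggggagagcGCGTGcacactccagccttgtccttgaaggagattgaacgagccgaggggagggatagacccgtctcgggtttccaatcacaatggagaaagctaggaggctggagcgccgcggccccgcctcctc

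The same upstream windows were matched for 31 of the 32 genes, with Slc2a3 the gene without an entry. ACGTG was present on either strand before at least 1 start of 12 genes (38.7%), against 18.5% of the 27025 genes in the promoter table. GCGTG was present for 21 genes (67.7% against 30.9%) and CACGTG for 5 genes (16.1% against 6.86%), namely Hif1a, Ldha, Pfkfb3, Pfkm and Slc16a1. Genes with several starts had more windows to hold a match. Counted per start, the shares were 33.3% of 45 windows against 16.6% of 32851 for ACGTG, 55.6% against 28.2% for GCGTG and 11.1% against 6.02% for CACGTG. These matches describe letters in a window and not bound sites, and base composition was not matched between the sets.

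Total counts ran from 24006053 to 49294934 per library, the lowest being Ag 4. The T cell genes Cd3d, Cd3e, Cd3g, Cd8a, Cd8b1, Trac and Lck summed to 10850 to 11490 CPM (counts scaled to library size) in Naive, 9407 to 13490 in Ag and 5451 to 7484 in Ag+Costim, where 6 of the 7 were lower than in Ag, and Cd4 stayed at or below 2.44 CPM. Of genes of other cells, 7 erythroid genes summed to 149.9 to 2071 CPM in Naive, 625.9 to 6381 in Ag and 14.5 to 223 in Ag+Costim, and 6 of the 7 were lower in Ag+Costim than in Ag. The 5 B cell genes summed to 27.8 to 30.9 CPM in Naive, 124.8 to 173.2 in Ag and 41.4 to 86.3 in Ag+Costim. All 5 were higher in Ag against Naive, and from Ag to Ag+Costim 3 fell and 1 rose. The 7 myeloid genes summed to at most 186 CPM, with 2 higher and 2 lower in Ag against Naive and 3 higher in Ag+Costim against Ag. The 4 dendritic cell genes summed to at most 8.10 CPM and the 2 NK genes to at most 14.5, of which 1 was lower in Ag+Costim against Ag. The 5 proliferation genes Mki67, Top2a, Ccnb1, Cdk1 and Birc5 rose from 30.4 to 31.7 CPM in Naive through 437 to 889 in Ag to 1851 to 2330 in Ag+Costim, and all 5 passed the test in each comparison. T cell, erythroid, B cell, myeloid, NK and proliferation genes thus differed between the same groups as the metabolic genes, some of them in the opposite direction. Their part in the results below was not tested. Ag 4 had the highest erythroid sum, 6381 CPM, and the highest sum of mitochondrially encoded genes, 21620 CPM against 7113 to 12090 in the other Ag libraries.

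Together the 32 genes took 0.575% and 0.550% of all counts in the Naive libraries, 0.726%, 0.727%, 0.720%, 0.685% and 0.708% in Ag, and 1.29%, 1.38%, 1.35%, 1.08% and 1.34% in Ag+Costim. The 3 ranges do not overlap. In bulk libraries, fewer cells that express a gene and less of its RNA per cell cannot be told apart. On the FPKM scale, in which reads are scaled to transcript length and library size, and which allows levels of different genes to be compared, Ldha ranked first in every group with group means of 633 FPKM in Naive, 1039 in Ag and 1790 in Ag+Costim, and Eno1 ranked second. The lowest were Hk2 in Naive (0.365 FPKM) and Eno2 in Ag (0.750) and Ag+Costim (0.108). Neither the shares of counts nor these ranks include counts on other annotated genes that are near-identical copies. Such copies held 90.5% to 91.6% of the counts of Gapdh and its copies together, so the rank of Gapdh is uncertain and it may be ranked too low.

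**Figure D1:**
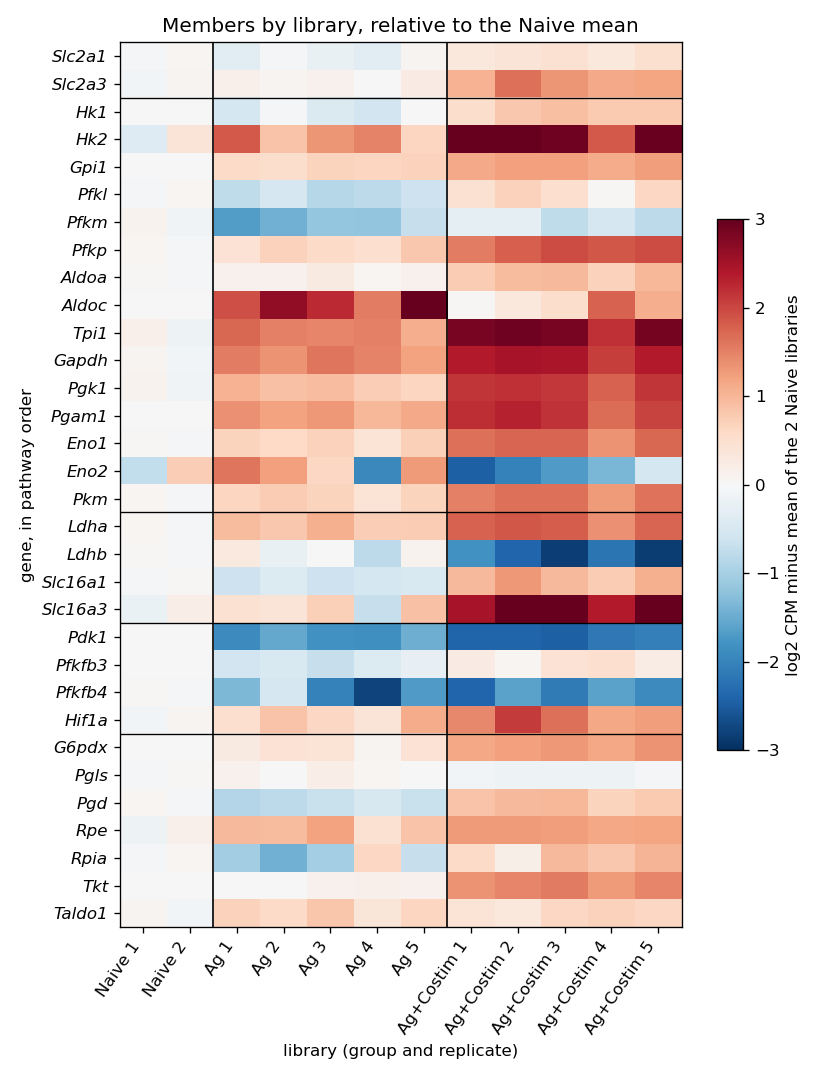
Heat map of log2 CPM minus the Naive mean for the 32 genes (rows, by role) in the 12 libraries (columns, by group), with colours saturating at differences of 3 in either direction. Most glycolytic genes are highest in the 5 Ag+Costim libraries, whereas Eno2, Ldhb, Pdk1, Pfkfb4 and Pgls are lowest there on average. Ag+Costim 4 is paler than the other Ag+Costim libraries for Tpi1, Pgk1 and Hk2.

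With costimulation added to antigen, most of the 32 genes were higher. Between Ag+Costim and Ag, 25 of the 32 genes were called higher, against 26.6% of all genes tested, and 5 lower, against 26.5%, and 2 were not called, where called means an edgeR quasi-likelihood test with a Benjamini-Hochberg adjusted p below 0.05 over all 18817 genes. By role, both glucose transporters, 13 of 15 glycolytic enzymes, 3 of 4 lactate genes, 2 of 4 regulators and 5 of 7 pentose phosphate enzymes were called higher. With a log2 fold change of at least 1 in size as well, 13 of the 32 were called higher, against 13.9% of all genes, and 3 lower, against 12.7%. Their median on the log2 scale was 0.89, beside -0.05 over all genes tested. Every Ag+Costim library lay above every Ag library for 22 genes (21.3% of all genes did so) and below for 3 genes (18.5%), and the libraries of the remaining 7 overlapped. Without Ag 4 the counts were again 25 and 5, with a median of 0.84. Upper-quartile scaling moved the median of all genes by -0.20 and split their calls into 4056 higher and 6338 lower, against 5006 and 4979 here.

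Between Ag and Naive, which differ in transfer and host as well as in antigen, 15 of the 32 genes were called higher, against 24.2% of all genes, 7 lower, against 22.5%, and 10 were not called. The share called lower, 21.9%, is near that of all genes and is no result about these 32. The glycolytic enzymes held 10 of the rises, and 3 of the 4 regulators were called lower. The median log2 fold change was 0.38, beside 0.02 over all genes. With single libraries left out it ran from 0.22 (without Naive 1) to 0.50 (without Ag 4), and it was 0.21 with limma on FPKM. Between Ag+Costim and Naive, 23 were called higher, against 26.9%, 3 lower, against 25.4%, and 6 were not called, with a median of 1.11 beside -0.02. These 3 comparisons share libraries with each other, so each is given by its own values, and those against Naive rest on 2 Naive libraries.

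**Figure D2:**
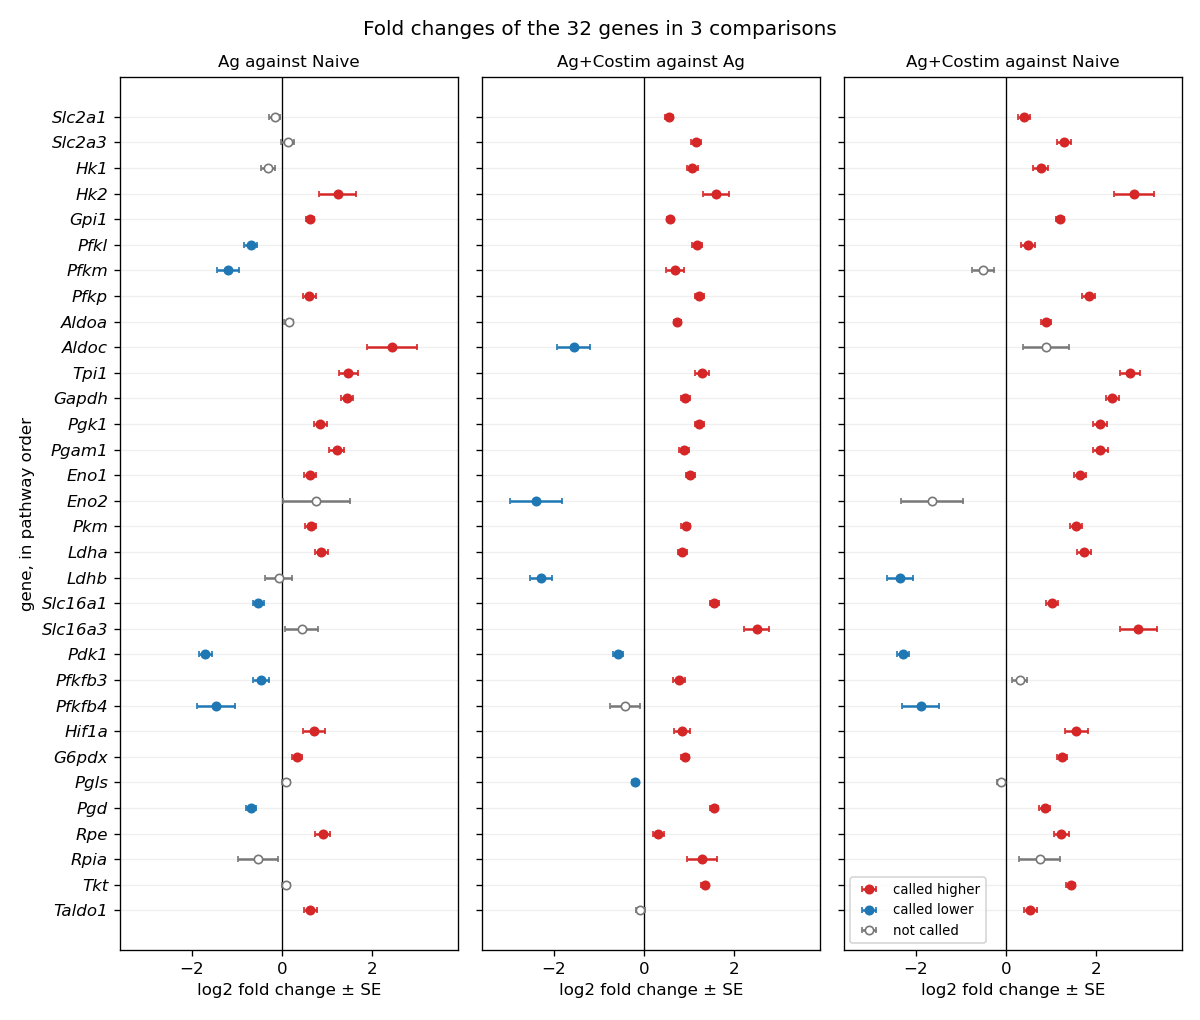
Log2 fold change ± SE of the 32 genes in 3 panels, Ag against Naive, Ag+Costim against Ag and Ag+Costim against Naive, with filled points for genes at an adjusted p below 0.05. In the middle panel 25 filled points lie right of 0 and 5 lie left, with Slc16a3 at 2.50 and Eno2 at -2.40 at the ends.

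Glucose enters through the facilitative transporters Slc2a1 (GLUT1) and Slc2a3 (GLUT3), and both were higher in Ag+Costim than in Ag while neither was called between Ag and Naive. For Slc2a3 (chr6:122727809-122801640, minus strand) the libraries measured 40.1 and 45.6 CPM in Naive, 47.5, 45.4, 46.8, 42.8 and 50.7 in Ag, and 88.2, 135, 107, 93.9 and 96.7 in Ag+Costim. All Ag+Costim libraries were above all others, and Ag and Naive overlapped. The difference between Ag+Costim and Ag was 2.23-fold (log2 fold change 1.16 ± 0.11 SE, edgeR adjusted p = 1.46e-06). Slc2a1 (chr4:119108711-119137983, plus strand) measured 51.04 and 54.6 CPM in Naive, 42.4, 51.7, 45.1, 41.5 and 55.5 in Ag, and 66.2, 69.2, 72.6, 65.5 and 73.8 in Ag+Costim. Its Ag+Costim libraries were again all higher, by 1.47-fold over Ag (log2 fold change 0.56 ± 0.09 SE, edgeR adjusted p = 0.000177). Between Ag and Naive the 95% interval of the log2 fold change was -0.43 to 0.11 for Slc2a1 and -0.21 to 0.45 for Slc2a3, whose estimate of 0.12 changed sign with FPKM or with a transcript length correction. With limma on FPKM, Slc2a1 was called lower in Ag than in Naive (log2 fold change -0.33, limma adjusted p = 0.0386).

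Hexokinase commits glucose to the cell by phosphorylation. The inducible isozyme Hk2 (chr6:82725025-82774454, minus strand) was low in every library, at 1.34 and 2.31 CPM in Naive, 6.27, 3.18, 4.38, 4.94 and 2.77 in Ag, and 14.7, 17.4, 13.3, 6.28 and 13.8 in Ag+Costim. The 3 groups are ordered Naive, Ag, Ag+Costim, and Ag+Costim 4 at 6.28 CPM lies just above the highest Ag library and far below the other Ag+Costim libraries. Hk2 was 3.04-fold higher in Ag+Costim than in Ag (log2 fold change 1.60 ± 0.29 SE, edgeR adjusted p = 0.000356) and 2.36-fold higher in Ag than in Naive (log2 fold change 1.24 ± 0.41 SE, edgeR adjusted p = 0.0238), a call that was lost without Naive 1 and on the FPKM scale. Hk1, the housekeeping isozyme, was far more abundant, with means ± SD of 156 ± 3.44 CPM in Naive, 127 ± 23.7 in Ag and 266 ± 24.4 in Ag+Costim. It rose between Ag and Ag+Costim (log2 fold change 1.07 ± 0.12 SE, edgeR adjusted p = 5.53e-06) and was not called between Naive and Ag (log2 fold change -0.30 ± 0.15 SE, edgeR adjusted p = 0.125). Hk1 was called lower in Ag than in Naive without Ag 5 (-0.38), with limma on FPKM (-0.49) and with the length correction (-0.47). Gpi1, which converts glucose 6-phosphate to fructose 6-phosphate, rose in both steps, with 200.3 ± 4.04 CPM in Naive, 308 ± 14.6 in Ag and 457 ± 20.5 in Ag+Costim and log2 fold changes of 0.62 ± 0.09 and 0.57 ± 0.07 (SE).

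Phosphofructokinase, the main control point of glycolysis, has 3 isozymes. They differed in direction between Ag and Naive and were all higher in Ag+Costim than in Ag. Pfkm, the muscle form (chr15:98092589-98132451, plus strand), measured 10.04 and 8.61 CPM in Naive, 2.92, 3.45, 4.17, 4.07 and 5.77 in Ag, and 7.61, 7.65, 5.49, 6.61 and 5.43 in Ag+Costim. Both Naive libraries lay above all Ag libraries, and Ag and Ag+Costim overlapped through Ag 5. Pfkm was 2.29-fold lower in Ag than in Naive (log2 fold change -1.19 ± 0.24 SE, edgeR adjusted p = 0.00112), and its rise from Ag to Ag+Costim (log2 fold change 0.69 ± 0.19 SE, edgeR adjusted p = 0.00811) was not called with the length correction. Pfkl, the liver form, fell between Naive and Ag (-0.70 on the log2 scale) and rose between Ag and Ag+Costim (1.18), with 138 ± 8.14 CPM in Naive, 84.97 ± 8.88 in Ag and 192 ± 30.7 in Ag+Costim. Pfkp, the platelet form, rose in both (0.61 and 1.22), with 210.3 ± 10.8 CPM in Naive, 320.1 ± 34.7 in Ag and 748 ± 85.8 in Ag+Costim. Pfkm overlaps Senp1 and Pfkp overlaps Pitrm1 on the opposite strand.

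Aldolase splits fructose 1,6-bisphosphate, and its 2 isozymes here moved in opposite directions between Ag and Ag+Costim. Aldoc (chr11:78322968-78327781, plus strand) measured 1.24 and 1.22 CPM in Naive, 4.72, 7.74, 5.83, 3.56 and 11.4 in Ag, and 1.26, 1.53, 1.76, 4.19 and 2.596 in Ag+Costim. Every Ag library was above both Naive libraries, and 4 of the 5 Ag+Costim libraries were back below every Ag library, with Ag+Costim 4 (4.19 CPM) above Ag 4 (3.56 CPM). Aldoc rose 5.43-fold from Naive to Ag (log2 fold change 2.44 ± 0.55 SE, edgeR adjusted p = 0.00246) and fell 2.94-fold from Ag to Ag+Costim (log2 fold change -1.56 ± 0.36 SE, edgeR adjusted p = 0.00262). Aldoa (chr7:126795234-126800751, minus strand), the abundant form, measured 490.5 and 462 CPM in Naive, 522, 518, 577, 499 and 517 in Ag, and 806, 925, 938, 774 and 949 in Ag+Costim. All 5 Ag+Costim libraries were above the rest, by 1.67-fold over Ag (log2 fold change 0.74 ± 0.08 SE, edgeR adjusted p = 4.68e-06), and Aldoa was not called between Ag and Naive, where its estimate of 0.14 became -0.0159 on the FPKM scale.

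The lower part of glycolysis, from triose phosphate to pyruvate, held Tpi1, Gapdh and Pgam1, which rose in both comparisons. Tpi1, which interconverts the triose phosphates (chr6:124810586-124814296, minus strand), measured 82.4 and 66.04 CPM in Naive, 244, 210.2, 204, 210.2 and 156 in Ag, and 532, 559.5, 527, 337 and 541 in Ag+Costim. The groups did not overlap, and Ag+Costim 4 (337 CPM) was the lowest of its group. Tpi1 rose 2.76-fold from Naive to Ag (log2 fold change 1.46 ± 0.21 SE, edgeR adjusted p = 8.23e-05) and 2.44-fold from Ag to Ag+Costim (log2 fold change 1.29 ± 0.15 SE, edgeR adjusted p = 7.48e-06). Pgam1, which moves the phosphate of 3-phosphoglycerate (chr19:41911923-41918660, plus strand), measured 69.4 and 68.3 CPM in Naive, 177, 159, 171, 138 and 151 in Ag, and 322, 339.7, 308, 219 and 278 in Ag+Costim. The groups were again separate, with 2.31-fold (log2 fold change 1.21 ± 0.16 SE, edgeR adjusted p = 4.34e-05) and 1.84-fold (log2 fold change 0.88 ± 0.11 SE, edgeR adjusted p = 2.09e-05) differences in the same order.

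Gapdh, the oxidising step (chr6:125161715-125166467, minus strand), measured 51.8 and 46.2 CPM in Naive, 142, 125, 148, 136 and 114 in Ag, and 253, 271, 266, 207 and 255 in Ag+Costim. It rose 2.72-fold (log2 fold change 1.44 ± 0.14 SE, edgeR adjusted p = 2.86e-06) and then 1.88-fold (log2 fold change 0.91 ± 0.10 SE, edgeR adjusted p = 3.48e-06), with no overlap of groups. The level of Gapdh is uncertain, because transcripts of 176 other annotated genes matched its coding sequence at 90% identity or more over at least 300 bases. The 140 of these genes with counts held 90.5% to 91.6% of the counts of Gapdh and these genes together. Copies found by the same limits held 21.2% to 21.8% of the family's counts for Eno1, 17.0% to 18.1% for Pgam1, 14.9% to 17.0% for Pgk1, 7.37% to 9.23% for Pkm, 3.79% to 4.99% for Tpi1 and 0.974% to 1.17% for Ldha. For Ldhb 1 such copy held 2.16% to 2.75% in Ag and 2.67% to 10.6% in Ag+Costim. With the copies' counts added to their parent genes, all 96 member comparisons kept their call and direction, and Gapdh was then 1.00 higher on the log2 scale in Ag+Costim than in Ag. Pgk1, which makes ATP at the next step, rose in both (0.85 and 1.23 on the log2 scale), with 81.1 ± 8.74 CPM in Naive, 146 ± 15.96 in Ag and 342 ± 38.2 in Ag+Costim.

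Of the 2 enolases among the 32 genes, Eno1 was higher and Eno2 lower in Ag+Costim against Ag. Eno1 (chr4:150236721-150248879, plus strand) measured 829.8 and 779.9 CPM in Naive, 1274, 1225, 1303, 1070 and 1319 in Ag, and 2542, 2696, 2689, 2050 and 2637 in Ag+Costim. Its groups did not overlap, with rises of 1.54-fold (log2 fold change 0.62 ± 0.13 SE, edgeR adjusted p = 0.0012) and 2.04-fold (log2 fold change 1.03 ± 0.09 SE, edgeR adjusted p = 8.68e-07). Eno2, the neuronal form (chr6:124760053-124769673, minus strand), measured 0.535 and 1.51 CPM in Naive, 2.74, 2.104, 1.38, 0.237 and 2.17 in Ag, and 0.166, 0.222, 0.279, 0.349 and 0.623 in Ag+Costim. It was at most 2.74 CPM in any library, and 4 of 5 Ag libraries lay above every Ag+Costim library, Ag 4 being the exception at 0.237 CPM. Eno2 was 5.28-fold lower in Ag+Costim than in Ag (log2 fold change -2.40 ± 0.58 SE, edgeR adjusted p = 0.00321). Eno3, the muscle enolase, is outside the 32 genes and was singled out after its values were seen. It measured 16.01 ± 2.65 CPM in Naive, 25.5 ± 8.62 in Ag and 15.6 ± 1.37 in Ag+Costim and was also lower in Ag+Costim (log2 fold change -0.70 ± 0.19 SE, edgeR adjusted p = 0.00754 against Ag), with libraries that overlapped. Eno2 and Tpi1, which moved in opposite directions between these groups, are 40.9 kb apart on the same strand of chromosome 6 with 1 protein-coding gene between them.

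**Figure D3:**
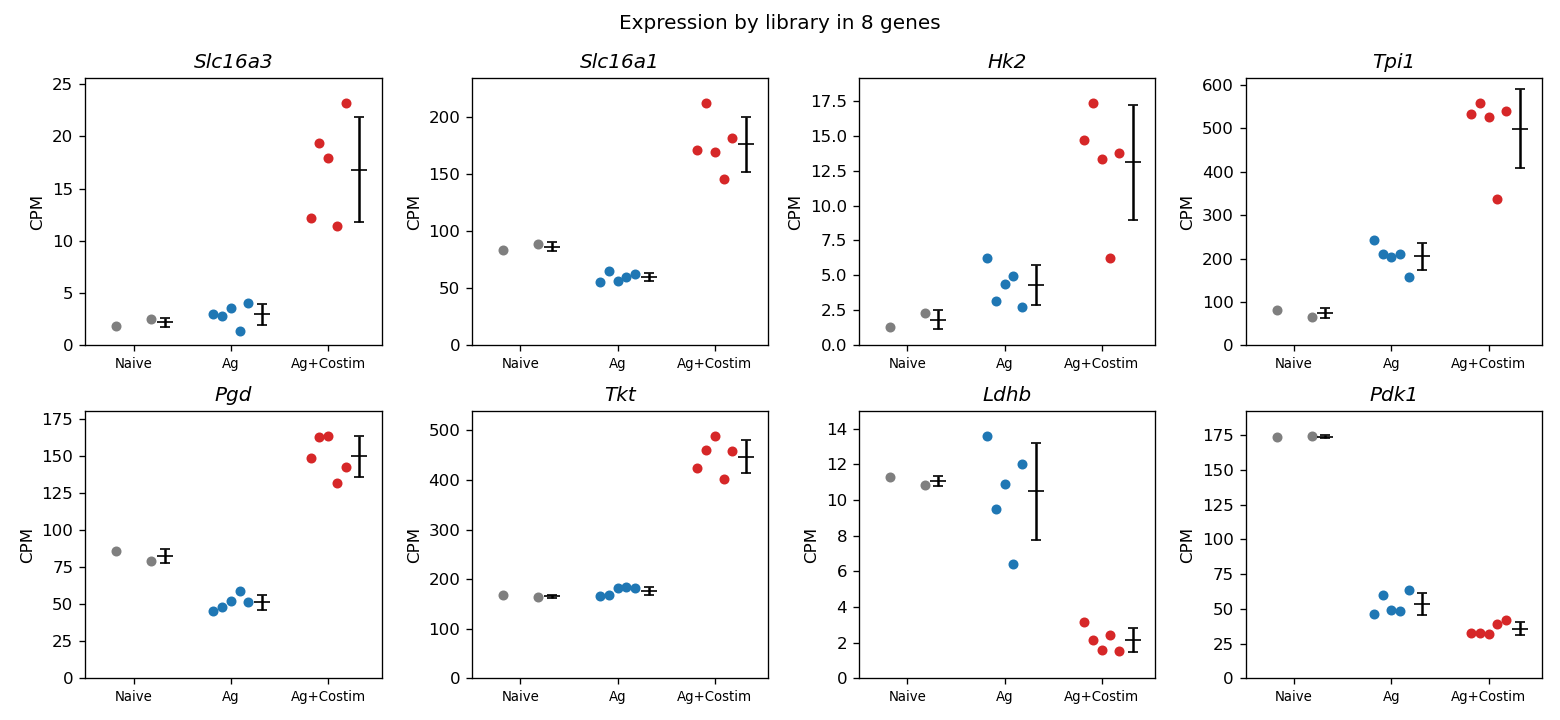
CPM (vertical axes, linear from 0) of Slc16a3, Slc16a1, Hk2, Tpi1, Pgd, Tkt, Ldhb and Pdk1 in Naive, Ag and Ag+Costim, each point a library and each bar the mean ± SD. Ldhb and Pdk1 are lowest in Ag+Costim, whereas the other 6 are highest there.

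Pyruvate kinase, the last glycolytic step, rose with the pathway. Pkm measured 644 ± 37.2 CPM in Naive, 997 ± 89.8 in Ag and 1885 ± 194 in Ag+Costim, with log2 fold changes of 0.63 ± 0.13 and 0.92 ± 0.09 (SE) in Ag against Naive and Ag+Costim against Ag. Among transcripts with either printed exon, the share with the M1 exon was 1.96 and 5.38% in Naive, 2.14, 2.22, 9.08, 2.09 and 2.07 in Ag, and 1.798, 1.62, 1.81, 1.37 and 1.88 in Ag+Costim. Ag 3 at 9.08% and Naive 2 at 5.38% stood above the rest, and all 5 Ag+Costim libraries lay below all Ag libraries. The Ag+Costim mean was 1.83 percentage points below the Ag mean (two-sided exact permutation test over 5 against 5 libraries, p = 0.00794, the smallest this design can give), and without Ag 3 the difference was -0.436 points (exact p = 0.0159). These shares rest on 373 to 3194 estimated counts for the M1 transcript Pkm-202 and on 20866 to 89872 for the M2 transcript Pkm-201. The authors' exon inclusion value, 1 per group and with no replicate spread, was 3.23% in Ag and 1.34% in Ag+Costim for the M1 exon. For the M2 exon it was 99.0% in Ag and 99.98% in Ag+Costim. These values pool the same libraries, Ag 3 included, so they are not separate evidence of a difference.

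At the lactate step, lactate dehydrogenase A and both transporters were higher in Ag+Costim and lactate dehydrogenase B was lower. Ldha (chr7:46841475-46855627, plus strand), which favours lactate formation, measured 952 and 865 CPM in Naive, 1763, 1602, 1902, 1517 and 1542 in Ag, and 3106, 3316, 3204, 2329 and 3045 in Ag+Costim. The 3 groups were separate, with Ag+Costim 4 the lowest of its group, and Ldha rose 1.83-fold (log2 fold change 0.87 ± 0.14 SE, edgeR adjusted p = 0.000248) and 1.802-fold (log2 fold change 0.85 ± 0.10 SE, edgeR adjusted p = 1.3e-05). Ldhb (chr6:142490249-142507957, minus strand), which favours the reverse reaction, measured 11.3 and 10.9 CPM in Naive, 13.6, 9.51, 10.9, 6.41 and 12 in Ag, and 3.15, 2.13, 1.56, 2.42 and 1.53 in Ag+Costim. Naive and Ag overlapped, and every Ag+Costim library was below all of them, 4.86-fold under Ag (log2 fold change -2.28 ± 0.24 SE, edgeR adjusted p = 3.33e-06). Between Ag and Naive, Ldhb was not called, with a 95% interval of -0.75 to 0.60.

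Slc16a3 (MCT4), a lactate exporter of highly glycolytic cells (chr11:120948480-120960868, plus strand), had the largest rise of the 32 genes between Ag and Ag+Costim. It measured 1.89 and 2.499 CPM in Naive, 2.98, 2.84, 3.56, 1.34 and 4.02 in Ag, and 12.1, 19.4, 17.9, 11.4 and 23.2 in Ag+Costim. The 5 Ag+Costim libraries stood 5.65-fold above Ag (log2 fold change 2.50 ± 0.28 SE, edgeR adjusted p = 5.68e-06), whereas Ag and Naive overlapped. Slc16a1 (MCT1), which carries lactate in either direction (chr3:104638668-104658462, plus strand), measured 83.95 and 89.2 CPM in Naive, 55.9, 64.8, 56.3, 60.0 and 62.7 in Ag, and 171, 213, 169.7, 146 and 182 in Ag+Costim. Ag was the lowest group, below both Naive libraries, and Ag+Costim the highest, 2.94-fold over Ag (log2 fold change 1.56 ± 0.10 SE, edgeR adjusted p = 4.95e-08). The lower level in Ag than in Naive (log2 fold change -0.53 ± 0.12 SE, edgeR adjusted p = 0.00314) turned to a log2 fold change of 0.0883 with the length correction.

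The regulators did not move together. Pdk1, the kinase that inhibits pyruvate dehydrogenase and so keeps pyruvate out of the mitochondrial cycle (chr2:71873224-71903858, plus strand), measured 174 and 175 CPM in Naive, 46.4, 60.2, 49.1, 48.7 and 63.2 in Ag, and 32.9, 32.7, 32, 39.1 and 42.1 in Ag+Costim. The order was Naive, Ag, Ag+Costim from high to low with no overlap, 3.25-fold lower in Ag than in Naive (log2 fold change -1.70 ± 0.14 SE, edgeR adjusted p = 7.06e-07), and 1.497-fold lower again in Ag+Costim (log2 fold change -0.58 ± 0.11 SE, edgeR adjusted p = 0.000576 against Ag). Pfkfb4, which sets the level of the phosphofructokinase activator fructose 2,6-bisphosphate (chr9:108991778-109032228, plus strand), measured 7.99 and 7.73 CPM in Naive, 3.07, 5.57, 1.93, 1.15 and 2.43 in Ag, and 1.52, 2.59, 1.8, 2.58 and 2.08 in Ag+Costim. Naive was above every other library (log2 fold change -1.46 ± 0.42 SE, edgeR adjusted p = 0.011 in Ag against Naive, a call lost when either Naive library was left out), and Ag and Ag+Costim overlapped, with a 95% interval of -1.19 to 0.34. Pfkfb3, its paralog, was called lower in Ag than in Naive (-0.47 on the log2 scale, lost without Ag 1, Ag 2, Ag 3, Naive 1 or Naive 2) and higher in Ag+Costim than in Ag (0.77), with 9.16 ± 0.0612 CPM in Naive, 6.63 ± 0.779 in Ag and 11.3 ± 1.42 in Ag+Costim. The call of Pfkfb3 between Ag and Naive was also lost with the length correction (-0.30), with upper-quartile scaling (-0.42), without the filter on low counts and with only the 2 groups fitted. Hif1a, the oxygen-regulated subunit of HIF-1, was called higher in both comparisons (0.72 and 0.84), with 96.3 ± 8.71 CPM in Naive, 158 ± 32.9 in Ag and 284 ± 78.9 in Ag+Costim. The call of Hif1a between Ag and Naive was lost without Naive 1, without Naive 2, without Ag 5 or with limma on FPKM (0.49).

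In the pentose phosphate pathway 5 of 7 enzymes were higher in Ag+Costim than in Ag, 1 was lower and 1 was not called. Pgd, the second NADPH-forming dehydrogenase (chr4:149149991-149166771, minus strand), measured 86.3 and 79.6 CPM in Naive, 45.2, 48.4, 52.3, 58.9 and 51.9 in Ag, and 149, 163, 164, 132 and 142 in Ag+Costim. Ag was the lowest group and Ag+Costim the highest, with no overlap, so that Pgd was 1.62-fold lower in Ag than in Naive (log2 fold change -0.69 ± 0.12 SE, edgeR adjusted p = 0.000269) and 2.93-fold higher in Ag+Costim than in Ag (log2 fold change 1.55 ± 0.09 SE, edgeR adjusted p = 3.12e-08). Tkt, the transketolase of the non-oxidative arm (chr14:30548359-30574720, plus strand), measured 168 and 164 CPM in Naive, 165, 168, 182, 183 and 182 in Ag, and 424, 461, 489, 403 and 457 in Ag+Costim. Naive and Ag overlapped, with a 95% interval of -0.14 to 0.31, and the Ag+Costim libraries were all higher, 2.54-fold over Ag (log2 fold change 1.35 ± 0.07 SE, edgeR adjusted p = 2.03e-08). The estimate for Tkt between Ag and Naive was 0.09, and -0.0856 on the FPKM scale.

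The other pentose phosphate enzymes are G6pdx, Pgls, Taldo1, Rpia and Rpe. G6pdx, the entry dehydrogenase, measured 76.05 ± 0.358 CPM in Naive, 95.8 ± 9.41 in Ag and 179.7 ± 10.8 in Ag+Costim and was 0.91 higher on the log2 scale in Ag+Costim than in Ag (edgeR adjusted p = 8.65e-07). Pgls, the lactonase between the dehydrogenases, measured 82.7 ± 1.95 CPM in Naive, 87.6 ± 5.47 in Ag and 76.2 ± 2.56 in Ag+Costim and was lower in Ag+Costim than in Ag (log2 fold change -0.20 ± 0.07 SE, edgeR adjusted p = 0.0217), a call lost without Ag 1, Ag 3, Ag+Costim 3 or Ag+Costim 4 and with the length correction (-0.14). Taldo1, the transaldolase, was not called between Ag+Costim and Ag, with a 95% interval of -0.32 to 0.14, and was higher in Ag than in Naive (0.63). The isomerase Rpia, which makes ribose 5-phosphate, was at most 8.36 CPM and was higher in Ag+Costim than in Ag (log2 fold change 1.28 ± 0.34 SE, edgeR adjusted p = 0.00599), with Ag 4 (6.25 CPM) within the Ag+Costim range. Between Ag and Naive Rpia was not called (-0.54), but it was without Ag 4 (-1.03). Rpe, the epimerase, was higher in Ag than in Naive (0.90) and in Ag+Costim than in Ag (log2 fold change 0.32 ± 0.12 SE, edgeR adjusted p = 0.0339), the latter call being lost without Ag 5, Ag+Costim 1, Ag+Costim 2 or Ag+Costim 3. That call was also lost without the filter on low counts. With the length correction and with upper-quartile scaling it was lost too, and the log2 fold change was 0.12 in each.

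Shares within isozyme families were compared per library on the FPKM scale for 9 shares, Ag+Costim against Ag, with a two-sided exact permutation test over 252 arrangements and adjustment over the 9, and 4 passed. Each family here holds only its members among the 32 genes, so that Eno3, for example, is outside the enolase sum. These shares come from the same libraries as the fold changes above. The Slc2a3 share of the 2 glucose transporters was 43.9 ± 2.92% in Naive, 48.6 ± 2.28% in Ag and 59.8 ± 4.79% in Ag+Costim, higher by 11.1 percentage points in Ag+Costim than in Ag (exact permutation, adjusted p = 0.0238). Ldhb was 1.49 ± 0.0862% in Naive, 0.773 ± 0.1903% in Ag and 0.0916 ± 0.0343% in Ag+Costim of the sum of Ldha and Ldhb, and every Ag+Costim library was below every Ag library (exact permutation, adjusted p = 0.0238). Aldoc was 0.185 ± 0.06802% in Naive, 0.747 ± 0.354% in Ag and 0.164 ± 0.104% in Ag+Costim of the sum of Aldoa and Aldoc, also without overlap (exact permutation, adjusted p = 0.0238). Eno2 was 0.0909 ± 0.0635% in Naive, 0.1204 ± 0.07003% in Ag and 0.00913 ± 0.00517% in Ag+Costim of the sum of Eno1 and Eno2 (exact permutation, adjusted p = 0.0357), where the libraries overlapped and the call was lost on leaving out any 1 library other than Ag 4 or Ag+Costim 5. With a library left out the exact test has fewer arrangements and cannot reach as small a p. The difference itself ran from -0.138 to -0.0917 points, beside -0.111 with all libraries.

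The other 5 shares did not pass. Slc16a3 was 2.52 ± 0.352% in Naive, 8.28 ± 3.83% in Ag and 14.7 ± 3.63% in Ag+Costim of the pair of lactate transporters, a difference of 6.43 points (exact permutation, adjusted p = 0.0714), and with counts per length in place of FPKM the difference was 11.7 points (adjusted p = 0.0179 by the same exact test) and with 1 added to each FPKM it was 2.9 points (exact permutation, adjusted p = 0.31), while leaving out Ag 5 gave 7.88 points (exact permutation, adjusted p = 0.0357). The counts per length used the median length of all annotated transcripts, 974.5 bases for Slc16a3 and 4426 for Slc16a1, which need not be that of the expressed RNA. Pfkfb4 was 53.8 ± 4.67% in Naive, 35.3 ± 14.1% in Ag and 22.6 ± 3.57% in Ag+Costim of the sum of Pfkfb3 and Pfkfb4 (exact permutation, adjusted p = 0.119), and passed with counts per length at 0.0476 and with 1 added to each FPKM at 0.0429 (-9.17 points). For Hk2 the shares were 0.854 ± 0.301% in Naive, 2.64 ± 1.19% in Ag and 3.63 ± 1.26% in Ag+Costim (exact permutation, adjusted p = 0.296). Among phosphofructokinases, Pfkp was 56.9 ± 3.18% in Naive, 76.7 ± 1.39% in Ag and 77.3 ± 3.62% in Ag+Costim and Pfkl was 39.96 ± 3.503% in Naive, 22.01 ± 1.57% in Ag and 21.7 ± 3.46% in Ag+Costim (exact permutation, adjusted p = 0.839 and 0.889). The phosphofructokinase shares of Ag and Ag+Costim overlapped.

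**Figure D4:**
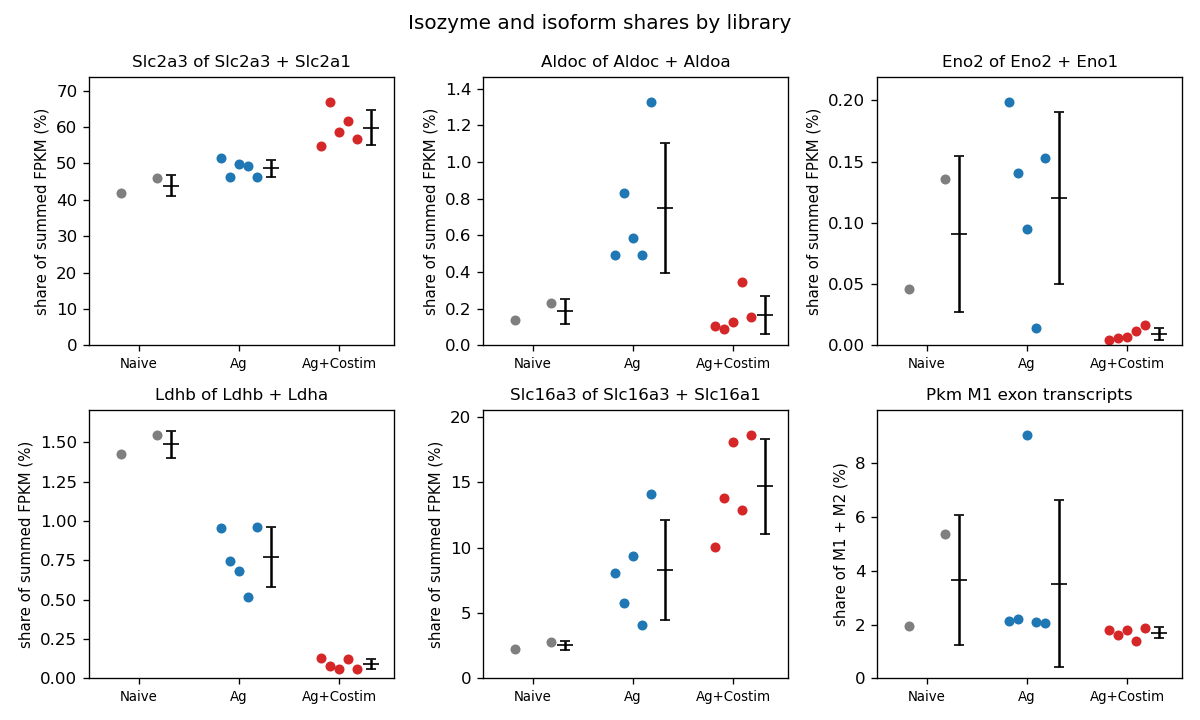
Share in percent of Slc2a3, Aldoc, Eno2, Ldhb and Slc16a3 in the summed FPKM of their families among the 32 genes, and of M1 transcripts of Pkm, in Naive, Ag and Ag+Costim, each point a library and each bar the mean ± SD. Ldhb falls to a mean of 0.0916% in Ag+Costim, and 1 Ag library stands at 9.08% for M1.

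The rest of the pathway was represented by 84 further genes, of which 69 passed the filter. In Ag against Naive 17 of them rose (24.6%, beside 24.2% of all genes) and 20 fell (29.0%, beside 22.5%). In Ag+Costim against Ag 27 rose (39.1%, beside 26.6%) and 17 fell (24.6%, beside 26.5%), and in Ag+Costim against Naive 25 rose (36.2%, beside 26.9%) and 14 fell (20.3%, beside 25.4%). Shares near those of all genes are no result about these genes. The largest rises among well expressed genes in Ag+Costim against Ag were Pygb, a glycogen phosphorylase (1.44 ± 0.11 SE, from 58.3 ± 9.69 to 159 ± 13.2 CPM), Tigar, which lowers fructose 2,6-bisphosphate (1.38 ± 0.13, from 7.71 ± 1.24 to 20.1 ± 1.66 CPM), and Gpd2, the mitochondrial arm of the glycerol phosphate shuttle (1.38 ± 0.14, from 37.9 ± 3.23 to 98.4 ± 15.4 CPM). The largest falls were Galm and Galt, enzymes of galactose entry (-1.46 ± 0.20 and -1.27 ± 0.09), and Bpgm, which makes the hemoglobin ligand 2,3-bisphosphoglycerate (-1.13 ± 0.14). All 6 had an edgeR adjusted p of at most 3.98e-05, and every Ag+Costim library was on one side of every Ag library for each. Bpgm is abundant in red cells, and the sum of the erythroid genes was also lower in Ag+Costim (14.5 to 223 CPM) than in Ag (625.9 to 6381 CPM). Between Ag and Naive, Bpgm was higher in Ag (log2 fold change 0.89 ± 0.19 SE, edgeR adjusted p = 0.00201) and no erythroid gene was called. The part of red cells in the fall of Bpgm was not tested.

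Among the 32 genes, 18 overlap another annotated gene and 13 of those overlap one on the opposite strand. The library kit does not mark strand, so reads from a stretch shared with an opposite-strand partner cannot be assigned by strand. Overlap was taken over whole genes with their introns, and how much of it lies in exons was not measured. Across 21 alternative settings, 66 of the 78 calls over the 3 comparisons held in every one, including 27 of the 30 between Ag+Costim and Ag, where Pfkm, Pgls and Rpe were the exceptions. Of the 18 comparisons not called, 8 gained a call in at least 1 setting.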

How the data were processed

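Poly(A) RNA of 12 libraries (2 Naive, 5 Ag and 5 Ag+Costim) was sequenced by the authors as single reads from a SMART-Seq v4 and Nextera XT protocol. The submitters' processing notes list mm10, HISAT2 2.1.0, SAMtools 1.9, StringTie 2.1.0, R 4.0.5 and DESeq2 1.30.1, and whether counting used strand is not given in the sources used here. The deposited counts are whole-number estimates per gene and per transcript made by the authors and not normalized. The deposited FPKM values are the authors' own, per transcript, scaled to transcript length and library size, and were summed here per gene. The deposited exon inclusion file gives a fraction (Psi) per group, with replicates pooled by the authors, and its columns of difference, probability and entropy hold the authors' own comparison and were not used.

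Counts were tested with edgeR 4.0.16 (TMM scaling, filterByExpr, robust quasi-likelihood fit and two-sided test, 1 term per group over all 12 libraries, Benjamini-Hochberg adjustment over 18817 genes) in R 4.3.3, with scripts tested on simulated data. CPM are counts scaled to the TMM library size. The SE of an edgeR log2 fold change was derived from the test, as its size over the square root of the F statistic. The 95% intervals are the estimate ± that SE times the t quantile at the residual degrees of freedom. The test itself borrows degrees of freedom across genes, so the intervals need not match its p-values. Alternatives used DESeq2 1.42.0, limma 3.58.1 on log2(FPKM + 1), RLE and upper-quartile scaling, no filter, a per-gene transcript length correction, only the 2 groups compared, a replicate block, each library left out, and, chosen after the data were seen, copies added to parents (blastn 2.17.0). The length correction, and the counts per length of the isozyme shares, took the median length over all annotated transcripts of a gene. That length can differ from the length of the expressed RNA. Shares were compared with exact permutation tests in scipy 1.17.1. Aldoa has 2 identifiers, and the one with more counts was used. Coordinates are GRCm38, and promoters are RefSeq's.

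Values in every library are given for the 6 largest changes in each direction, at a log2 fold change of at least 1, in Ag+Costim against Ag or Ag against Naive, and for paralogs whose share passed. From the other pathway lists the 3 largest rises and 3 largest falls with mean log2 CPM above 3 are given. Members and lists were chosen with earlier results of these data known. Depth ran from 24006053 to 49294934 counts per library, and the fewest counts stand behind the genes at a few CPM or less, such as Eno2, Hk2 and Pfkfb4.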

Additional observations from a re-analysis of the deposited data

Results flagged for a closer look

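Each of 84 groups of 5 libraries was searched for a library far from the others, by the gap to its nearest neighbour as a share of the group's range, and 8 passed Dixon's critical value of 0.71, where chance alone flags about 1 group in 20. Ag+Costim 4 accounted for 7 of the 8. On the log2 CPM scale it was the lowest Ag+Costim library for Hk2 (2.66 against 3.74 to 4.12 in the other 4), Tpi1 (8.40 against 9.04 to 9.13), Gapdh (7.70 against 7.98 to 8.08), Pgk1 (8.10 against 8.47 to 8.52), Eno1 (11.0 against 11.3 to 11.4) and Ldha (11.2 against 11.6 to 11.7). It was also the highest for the share of Aldoc in aldolase FPKM, 0.344% against 0.0886% to 0.157%. These are the same libraries and largely the same pathway, so the 7 are not independent of each other. Without Ag+Costim 4, 25 of the 32 genes passed the test with a rise from Ag to Ag+Costim and 4 with a fall, and the median log2 fold change was 0.97. The remaining case was Ag 3, with an M1 share of Pkm transcripts of 9.08% against 2.07% to 2.22% in the other Ag libraries. What sets these libraries apart was not tested.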

How the results depend on the processing

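Of the 78 calls on the 32 genes over 3 comparisons, 66 held under all 21 alternatives and 12 were lost under at least 1, namely 6 of 22 in Ag against Naive (G6pdx, Hif1a, Hk2, Pfkfb3, Pfkfb4 and Slc16a1), 3 of 30 in Ag+Costim against Ag (Pfkm, Pgls and Rpe) and 3 of 26 in Ag+Costim against Naive (Pfkl, Slc2a1 and Taldo1). Of the 18 comparisons that were not called, 8 gained a call under at least 1 alternative. These were Slc2a1, Hk1 and Rpia in Ag against Naive, Taldo1 in Ag+Costim against Ag, and Pfkm, Eno2, Pgls and Rpia in Ag+Costim against Naive. Leaving out 1 of the 2 Naive libraries left that group with a lone library, assumed to vary like the others. Genes called lower in Ag+Costim against Naive numbered 3, but 5 with only the 2 groups fitted and 6 with upper-quartile scaling. The median log2 fold change of the 32 genes moved from 0.38 to 0.21 (Ag against Naive, limma on FPKM), from 1.11 to 0.86 (Ag+Costim against Naive, limma on FPKM) and 0.95 (upper-quartile), and from 0.89 to 0.70 (Ag+Costim against Ag, upper-quartile). With single libraries left out it ran from 0.22 to 0.50 in Ag against Naive and from 1.02 to 1.16 in Ag+Costim against Naive, in both cases moving beyond the replicate spread without Naive 1. Upper-quartile scaling shifted the median of all genes by -0.20 in Ag+Costim against Ag and -0.15 in Ag+Costim against Naive, which accounts for shifts of that size by construction. With limma on FPKM, 24 further pathway genes were lower in Ag+Costim against Naive instead of 14, and all genes split into 3606 higher and 5804 lower in Ag against Naive (4559 and 4233 with counts) and 3987 and 6718 in Ag+Costim against Naive (5066 and 4778 with counts). The cause was not tested.

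Estimates that changed sign were, in Ag against Naive, Slc2a3 (-0.0733), Aldoa (-0.0159) and Tkt (-0.0856) with limma on FPKM, and Slc2a3 (-0.0947), Slc16a1 (0.0883, a called fall in the counts) and Pgls (-0.0431) with the length correction. Pfkfb3 was -0.15 in Ag+Costim against Naive with limma on FPKM. Ldhb in Ag against Naive was 0.11 with the replicate block and ran from -0.187 to 0.0555 with single libraries left out. Of the shares, in percentage points, Hk2 became -0.524 with 1 added to each FPKM, and single libraries left out gave -1.19 to 0.997 for Pfkl and -0.723 to 1.57 for Pfkp. None of these shares passed the test.

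The 5 correlations between libraries of the same number in Ag and Ag+Costim, in their deviations from the group means, ran from 0.0159 to 0.0952. None was over 0.1, the level required to treat the numbers as pairs, and the labels tie no number to a shared animal or batch, so no pairing was assumed. As a hint from the data only, all 5 were positive and 3 of 5 libraries in each group correlated best with their own number. With the replicate block, 25 of the 32 genes were again higher and 5 lower in Ag+Costim against Ag, and the block changed no call of the 32 genes other than Rpia in Ag against Naive, which became called (-1.15).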

Other observations

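Among the further pathway genes, several outside the rule for named genes are given here because of their size or role, and were chosen after their values were seen. Pdk2, a paralog of Pdk1 that also inhibits pyruvate dehydrogenase, measured 27.1 and 23.2 CPM in Naive, 13.2, 19.0, 13.1, 6.33 and 20.2 in Ag, and 1.78, 0.798, 0.815, 2.19 and 1.27 in Ag+Costim and fell from Ag to Ag+Costim (log2 fold change -3.39 ± 0.35 SE, edgeR adjusted p = 2.79e-06), with all 5 Ag+Costim libraries below all 5 Ag libraries. The kinases did not all fall. Pdk3, a further paralog, was more abundant, at 43.5 ± 2.19 CPM in Naive, 121 ± 25.6 in Ag and 139 ± 6.95 in Ag+Costim. It was higher in Ag than in Naive (log2 fold change 1.48 ± 0.19 SE, edgeR adjusted p = 3.81e-05) and not called between Ag+Costim and Ag (log2 fold change 0.19 ± 0.13 SE, edgeR adjusted p = 0.247). Epas1, which encodes HIF-2α, measured 2.94 and 1.51 CPM in Naive, 0.219, 0.425, 0.443, 0.514 and 0.240 in Ag, and 4.20, 8.40, 7.95, 3.63 and 8.72 in Ag+Costim. It was higher in Ag+Costim than in Ag (log2 fold change 4.17 ± 0.37 SE, edgeR adjusted p = 6.96e-07), again without overlap, and lower in Ag than in Naive (log2 fold change -2.61 ± 0.41 SE, edgeR adjusted p = 0.000186). Myc and Arnt, listed with Epas1 as regulators, were also lower in Ag than in Naive (log2 fold change -1.21 ± 0.18 SE, edgeR adjusted p = 9.16e-05 for Myc and log2 fold change -1.02 ± 0.13 SE, edgeR adjusted p = 3.96e-05 for Arnt). Both were higher in Ag+Costim than in Ag (0.89 ± 0.14 and 0.77 ± 0.11 SE on the log2 scale). Neither was called between Ag+Costim and Naive (-0.32 and -0.24). Mpc1 and Mpc2, the subunits of the mitochondrial pyruvate carrier, were both higher in Ag than in Naive (log2 fold change 0.99 ± 0.16 SE, edgeR adjusted p = 0.000212 for Mpc1 and log2 fold change 0.95 ± 0.15 SE, edgeR adjusted p = 0.000201 for Mpc2) and fell from Ag to Ag+Costim (log2 fold change -0.33 ± 0.11 SE, edgeR adjusted p = 0.0281 for Mpc1, whose libraries overlapped, and log2 fold change -0.86 ± 0.11 SE, edgeR adjusted p = 2.03e-05 for Mpc2, whose libraries did not). The comparisons share the Ag libraries, so their opposite signs are not independent of each other.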
